A study of Mus musculus with 9 samples.

Results

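The immune checkpoint and costimulatory genes described here are *Cd80*, *Cd86*, *Cd274*, *Icosl*, *Cd40*, *Cd47*, *Sirpa*, *Cd200* and *Cd200r1*. They were chosen with earlier results of these data known and were matched by gene name. All 9 were found among the 56748 genes counted in each library. Counts of them set beside all genes are therefore descriptions. RNA was sequenced from SLAM-HSCs, the hematopoietic stem cells of mouse bone marrow sorted as Lin- Sca1+ c-Kit+ CD48- CD150+ cells. The yHSC group came from young mice of 6 to 10 weeks. The Selp_low and Selp_high paHSC groups were fractions of the same gate from pre-aged mice of 14 to 16 months, separated by surface P-selectin, the adhesion molecule encoded by *Selp*. The labels name no transgene, knockout or treatment in any group, and each group held 3 libraries. Nothing in the labels ties a library to an animal, so the p-values below measure the spread between these libraries.

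These genes encode surface proteins through which a cell addresses T cells and macrophages. CD80 and CD86 bind CD28, which costimulates T cells, and CTLA-4, which inhibits them. ICOSL binds ICOS, and PD-L1, the product of *Cd274*, binds the inhibitory receptor PD-1. CD40 is the receptor for CD40 ligand on activated T cells and is best known on B cells, dendritic cells and macrophages. CD47 signals to SIRPα on macrophages and restrains phagocytosis, and on HSCs it is known to protect against clearance. CD200 and its receptor CD200R1 form another inhibitory pair, in which the receptor is found mainly on myeloid cells.

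Library totals ran from 24866975 to 35375310 counts, and levels are given as CPM, counts scaled to a common library size with TMM factors, which correct for a few genes that take a large share of a library. The 10 most abundant genes took 44.8% of the counts in Selp_low paHSC replicate 2 and 20.9% in Selp_low paHSC replicate 3, against 3.90% to 12.5% in the other 7 libraries. All 10 HSC markers examined, among them *Kit*, *Procr* and *Hlf*, were detected in every library. Their summed level was lower in Selp_low paHSCs (1001 to 1689 CPM) than in Selp_high paHSCs (2440 to 3402 CPM). In yHSCs it was 1301 to 2740 CPM. Of the 10, *Ly6a* ran the other way, with a mean of 528 CPM in Selp_low and 246 CPM in Selp_high paHSCs. *Selp*, which defined the fractions, was at 651, 266 and 264 CPM in the Selp_high paHSC libraries and at 109, 29.3 and 93.3 CPM in the Selp_low paHSC libraries, so the labels and the transcript ran the same way. Genes that mark mature blood cells were also detected. The summed level of 8 B cell and plasma cell markers was 5655, 105946 and 78.0 CPM in Selp_low paHSC replicates 1, 2 and 3, 376 to 3657 CPM in Selp_high paHSCs and 161 to 274 CPM in yHSCs. Of these sums *Jchain* alone gave 247, 98320 and 27.4 CPM in Selp_low paHSC replicates 1, 2 and 3. It gave 154, 3192 and 473 CPM in the Selp_high paHSC libraries and 1.88 to 66.7 CPM in yHSCs. The summed level of 8 neutrophil markers was 203420 CPM in Selp_low paHSC replicate 3 and 489 and 4881 CPM in the other Selp_low paHSC libraries, against 11972 to 63264 CPM in yHSCs and 1538 to 39053 CPM in Selp_high paHSCs. Selp_low paHSC replicate 3 thus stood apart from replicates 1 and 2, and the calls of its 2 comparisons are given with and without it.

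In the gene positions of the deposited file (build mm39), 5 of the 9 genes lie on chromosome 16. They are *Cd86* (ENSMUSG00000022901, chr16:36424231-36486443, minus strand), *Cd80* (ENSMUSG00000075122, chr16:38275923-38316697, plus strand), *Cd200r1* (ENSMUSG00000022667, chr16:44586099-44615341, plus strand), *Cd200* (ENSMUSG00000022661, chr16:45202498-45229416, minus strand) and *Cd47* (ENSMUSG00000055447, chr16:49620896-49735373, plus strand). *Cd40* (ENSMUSG00000017652, chr2:164897547-164914868) and *Sirpa* (ENSMUSG00000037902, chr2:129434755-129474148) lie on the plus strand of chromosome 2. *Icosl* (ENSMUSG00000000732, chr10:77905136-77919747) and *Cd274* (ENSMUSG00000016496, chr19:29344855-29365495) are also on the plus strand.

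RefSeq promoter sequences of build GRCm38.p6 were matched for 5 of the 9 genes, *Cd80*, *Cd274*, *Icosl*, *Cd47* (with 2 starts) and *Cd200*. *Cd86*, *Cd40*, *Sirpa* and *Cd200r1* were not matched. The 250 bases before the start are shown for the steadiest gene, *Cd47* (chr16:49855404-49855653, plus strand), and for 2 genes that were high in a pair of Selp_low paHSC libraries, *Icosl* (chr10:78069118-78069367, plus strand) and *Cd200* (chr16:45409054-45409303, minus strand). Capitals mark CG dinucleotides, the sites of DNA methylation.
Cd47: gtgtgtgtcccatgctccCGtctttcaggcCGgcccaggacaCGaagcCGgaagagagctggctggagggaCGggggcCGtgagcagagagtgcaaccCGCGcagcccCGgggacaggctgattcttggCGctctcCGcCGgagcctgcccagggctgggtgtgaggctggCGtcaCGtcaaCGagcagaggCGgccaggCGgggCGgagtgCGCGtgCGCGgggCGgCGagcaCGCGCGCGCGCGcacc
Icosl: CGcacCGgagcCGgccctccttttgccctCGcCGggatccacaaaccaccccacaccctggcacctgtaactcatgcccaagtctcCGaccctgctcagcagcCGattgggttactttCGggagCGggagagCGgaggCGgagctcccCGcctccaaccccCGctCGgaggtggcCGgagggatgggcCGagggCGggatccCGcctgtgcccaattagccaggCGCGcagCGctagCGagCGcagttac
Cd200: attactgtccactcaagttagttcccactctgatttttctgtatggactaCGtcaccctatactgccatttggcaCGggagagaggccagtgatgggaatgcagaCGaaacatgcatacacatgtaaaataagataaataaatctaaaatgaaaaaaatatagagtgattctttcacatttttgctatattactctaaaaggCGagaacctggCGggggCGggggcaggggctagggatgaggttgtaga
The *Cd47* window held 30 CG dinucleotides at a GC content of 73.2%, more than 94.1% of the 32851 mouse promoter windows. The *Icosl* window held 23 (68.8% GC) and the *Cd200* window 6 (42.4% GC), against a median of 6 over all windows. *Cd80* had 3 and *Cd274* had 11. The steadiest and one of the most variable genes thus both had CG-rich windows. None of the 6 windows contained the interferon-γ element GAS (TTCNNNGAA, found in 7.02% of all windows), the interferon element ISRE (GAAANNGAAA, 2.98%), an NF-kB motif (GGGANTTTCC, 0.356%) or a PU.1 motif (GAGGAAGT, 2.44%) on either strand. This says only that these letters are not in these windows.

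All 9 genes were detected in every library. Levels of different genes were compared as FPKM, in which counts are divided by gene length. *Cd47* had the highest mean, 117 FPKM over the 9 libraries, and its lowest library (102 FPKM) was above the highest library of any other member (31.0 FPKM, *Cd40*). The next 7 were *Sirpa* (13.3 FPKM), *Cd200r1* (9.48), *Cd200* (8.97), *Cd274* (8.76), *Icosl* (7.71), *Cd40* (7.06) and *Cd86* (5.37). Their ranges over libraries overlapped, so neighbours in this order did not differ beyond their spread. *Cd80* was lowest at 0.565 FPKM, and its highest library (1.16 FPKM) was above the lowest libraries of *Icosl*, *Cd86* and *Cd40*.

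The 9 genes also differed in how much they varied. The highest library was 1.49 times the lowest for *Cd47*, 3.66 times for *Cd200r1* and 4.15 times for *Cd274*. It was 128 times the lowest for *Cd40*, 41.7 times for *Cd80* and 28.6 times for *Icosl*. For *Cd80* the lowest library, Selp_high paHSC replicate 1, held only 4 counts. In the plot of levels by library, *Cd47* is nearly flat and *Cd40* and *Icosl* rise in a pair of Selp_low paHSC libraries.

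**Figure D1:**
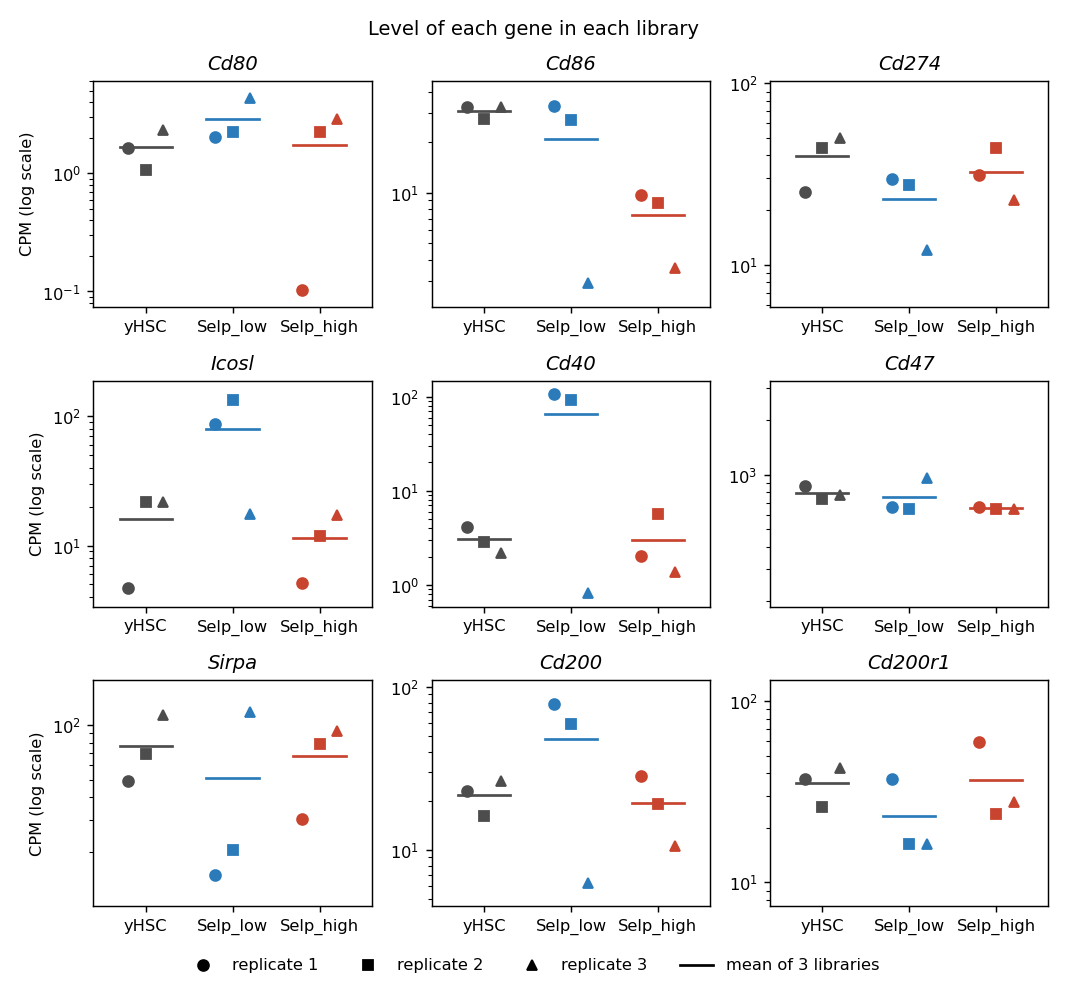
Level of each gene in each library, in CPM on a log axis, for yHSCs, Selp_low paHSCs and Selp_high paHSCs. Points are libraries, with 1 shape per replicate number, and lines are the means of 3 libraries. *Cd86* was at 3.55 to 9.71 CPM in Selp_high paHSCs and at 27.3 to 32.3 CPM in yHSCs, and Selp_low paHSC replicate 3 lay far below replicates 1 and 2 for *Cd86*, *Icosl*, *Cd40* and *Cd200*.

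The comparison of Selp_high paHSCs with yHSCs asked how the P-selectin-high fraction of pre-aged HSCs differs from young HSCs. *Cd86* was the gene that stood out. It was at 32.3, 27.3 and 32.3 CPM in yHSCs (30.6 ± 2.91, SD, n = 3) and at 9.71, 8.73 and 3.55 CPM in Selp_high paHSCs (7.33 ± 3.31, SD, n = 3). Every Selp_high paHSC library was below every yHSC library, also when levels were scaled by library totals alone or by RLE factors. DESeq2, the tool of the study, called *Cd86* lower by 4.31-fold (log2 fold change -2.11, SE 0.47, adjusted p = 0.000601). edgeR's quasi-likelihood test gave nearly the same change (log2 fold change -2.09, SE 0.44) with an adjusted p of 0.173 by Benjamini-Hochberg, which did not pass the threshold of 0.05. A gene was called at an adjusted p of at most 0.05 if its log2 fold change was also -1 or lower, or 1 or higher.

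Of the 9 genes, edgeR called 0 in this comparison and DESeq2 called 1, *Cd86*. Over all genes tested, edgeR called 0.165% and DESeq2 3.26%. At an unadjusted p under 0.05 edgeR counted 1 of the 9, again *Cd86*, against 7.59% of all genes. The DESeq2 call of *Cd86* held in each of 6 fits that left out 1 library, with log2 fold changes between -2.36 and -1.77 and adjusted p between 4.73e-05 and 0.0205. edgeR called *Cd86* in 0 of these 6 fits, with adjusted p between 0.245 and 0.770. In edgeR without the filter on low counts, *Cd86* was called (adjusted p = 0.00559), against 1.14% of all genes. *Cd86* is known in monocytes, macrophages and dendritic cells. Summed levels of 9 monocyte and macrophage markers, without *Lyz2*, were 180, 251 and 398 CPM in yHSCs and 143, 553 and 149 CPM in Selp_high paHSCs. *Lyz2*, the lysozyme gene of monocytes and neutrophils that would make up 64.3% to 98.8% of the sum in any library, was at 2055 to 10472 CPM in yHSCs and at 998 to 7156 CPM in Selp_high paHSCs. Neither test called any of these 10 markers in this comparison. The summed level of 8 dendritic cell markers was 57.9 to 76.7 CPM in yHSCs and 85.9 to 134 CPM in Selp_high paHSCs. DESeq2 called 1 of the 8 higher, *Clec9a* (log2 fold change 5.45, adjusted p = 0.000327), at 2.01, 7.25 and 0.945 CPM in Selp_high paHSCs and at 0 to 0.137 CPM in yHSCs. The part of these markers in the level of *Cd86* was not tested. In bulk RNA, fewer cells that express a gene and less RNA per cell cannot be told apart.

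*Cd47* was the other gene whose groups did not overlap. It was at 866, 732 and 769 CPM in yHSCs and at 658, 649 and 642 CPM in Selp_high paHSCs. The 3 Selp_high paHSC libraries lay close together and below all yHSC libraries, also with RLE factors and with library totals alone. The difference was small (edgeR log2 fold change -0.31, SE 0.21, adjusted p = 0.886) and was called by neither test. The groups did not overlap, in either direction, for 2 of the 9 genes and for 13.8% of all genes tested.

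The groups overlapped for the other 7 genes, and neither test called them. Their edgeR log2 fold changes lay between -0.51 (*Icosl*, SE 0.65) and 0.044 (*Cd200r1*, SE 0.41), and all adjusted p-values were 0.991 or more. *Cd274* was at 25.0, 43.9 and 49.8 CPM in yHSCs and at 31.2, 44.0 and 22.6 CPM in Selp_high paHSCs. *Cd40* stayed low in both groups, at 4.10, 2.87 and 2.21 CPM in yHSCs and at 2.01, 5.65 and 1.37 CPM in Selp_high paHSCs. *Cd80*, at 1.07 to 2.32 CPM in yHSCs and 0.103 to 2.89 CPM in Selp_high paHSCs, had the largest SE of the 9.

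The comparison of the 2 pre-aged fractions asked how Selp_high differ from Selp_low paHSCs. *Cd40* and *Icosl* had the largest differences, both lower in Selp_high paHSCs. *Cd40* was at 106, 91.9 and 0.824 CPM in Selp_low paHSCs (66.1 ± 56.9, SD, n = 3) and at 2.01, 5.65 and 1.37 CPM in Selp_high paHSCs (3.01 ± 2.30). The groups overlapped, because Selp_low paHSC replicate 3 had the lowest *Cd40* level of all 9 libraries. *Icosl*, the ligand of ICOS, was at 86.8, 134 and 17.4 CPM in Selp_low paHSCs (79.5 ± 58.9) and at 5.14, 11.8 and 17.1 CPM in Selp_high paHSCs (11.4 ± 6.02). The groups did not overlap, by a margin that was narrow in replicate 3 and that was lost when levels were scaled by library totals alone.

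DESeq2 called both genes lower in Selp_high paHSCs, *Cd40* with a log2 fold change of -4.49 (SE 1.09, adjusted p = 0.00638) and *Icosl* with -2.85 (SE 0.75, adjusted p = 0.0136). edgeR's quasi-likelihood test gave log2 fold changes of -4.46 (SE 1.49) and -2.82 (SE 0.79), each with an adjusted p of 0.338. Equal replicate numbers of the 2 fractions had positive residual correlations over all genes (0.178 to 0.303), so fits that treat them as pairs were also made. A Selp_high paHSC and a yHSC library of unlike numbers reached 0.449, so these values do not by themselves show pairing. The calls above, and the fits with a library left out, did not use this pairing. With the replicate number as a block, DESeq2 gave *Cd40* a log2 fold change of -3.40 (adjusted p = 0.0851) and *Icosl* one of -2.70 (adjusted p = 0.0658), and neither was called. edgeR called 0 of the 9 genes, and DESeq2 called 2 without the block and 0 with it. Over all genes tested, edgeR called 0% and DESeq2 2.46%, or 10.1% with the block. At an unadjusted p under 0.05 edgeR counted these same 2 genes, *Icosl* and *Cd40*, against 12.5% of all genes. Without the filter on low counts edgeR called 1 gene, *Icosl* (adjusted p = 0.0448), against 0.443% of all genes. The groups did not overlap for 1 gene, *Icosl*, against 20.9% of all genes.

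Single libraries decided these calls. *Cd40* was no longer called by DESeq2 without Selp_low paHSC replicate 1, Selp_low paHSC replicate 2, Selp_high paHSC replicate 1 or Selp_high paHSC replicate 3, with log2 fold changes of -4.26 to -3.98 and adjusted p of 0.0575 to 0.133. *Icosl* was no longer called without Selp_low paHSC replicate 1, Selp_low paHSC replicate 2 or Selp_high paHSC replicate 1, with log2 fold changes of -2.78 to -2.24 and adjusted p of 0.0617 to 0.274. Without Selp_low paHSC replicate 3, DESeq2 called 5 of the 9 genes, against 5.43% of all genes. They were *Cd40* (adjusted p = 4.88e-12) and *Icosl* (2.27e-06), and also *Cd86* (log2 fold change -2.05, adjusted p = 0.0134), *Cd200* (-1.85, 0.0234) and *Sirpa* (1.88, 0.0246). That fit set 3 Selp_high paHSC libraries against the 2 Selp_low paHSC libraries with high B cell marker levels.

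**Figure D2:**
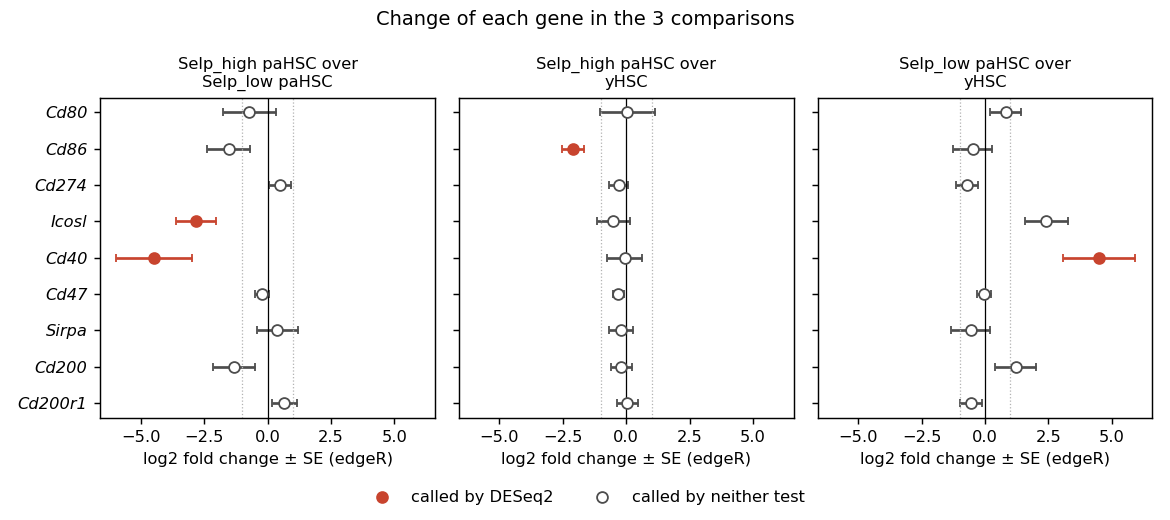
Change of each gene in the 3 comparisons, as edgeR log2 fold change with its SE. Filled red points are genes that DESeq2 called without the replicate block. With the block, *Cd40* and *Icosl* were not called between the pre-aged fractions. Dotted lines mark log2 fold changes of -1 and 1, and the calls were *Cd40* and *Icosl* between the pre-aged fractions, *Cd86* for Selp_high paHSCs over yHSCs and *Cd40* for Selp_low paHSCs over yHSCs.

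Within pairs of the same number, 3 of the 9 genes moved one way in all 3 pairs, against 46.1% of all genes tested. *Icosl* was lower in Selp_high paHSCs, with ratios to the Selp_low paHSC library of 0.0592, 0.0880 and 0.984. With library totals alone its ratio in pair 3 was 1.32, and the 3 genes were then *Cd274*, *Sirpa* and *Cd200r1*, against 42.6% of all genes. *Cd200r1*, the receptor of CD200, was higher, with ratios of 1.60, 1.46 and 1.71. *Cd274* was also higher, with ratios of 1.06, 1.60 and 1.88. With the block, DESeq2's adjusted p was 0.118 for *Cd200r1* and 0.273 for *Cd274*, so neither passed. *Cd86* was lower in the first pairs, with ratios of 0.294 and 0.324, and slightly higher in pair 3, at 1.215. Both replicate 3 libraries had low *Cd86* for their group, at 2.92 CPM in Selp_low and 3.55 CPM in Selp_high paHSCs.

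The comparison of Selp_low paHSCs with yHSCs asked what separates the P-selectin-low fraction from young HSCs. *Cd40* was the gene with the largest difference, higher in Selp_low paHSC replicates 1 and 2 than in any yHSC library (4.10, 2.87 and 2.21 CPM) and lower in replicate 3. DESeq2 called it higher (log2 fold change 4.42, SE 1.13, adjusted p = 0.00844), and with the replicate block 3.34 (adjusted p = 0.0288). edgeR's quasi-likelihood test gave 4.49 (SE 1.43, adjusted p = 0.344). *Icosl* was at 4.71, 21.7 and 21.5 CPM in yHSCs, levels between which Selp_low paHSC replicate 3 fell. Its difference (edgeR log2 fold change 2.41, SE 0.85) was called by neither test, with an adjusted p of 0.367 in edgeR and 0.102 in DESeq2.

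Of the 9 genes edgeR called 0 and DESeq2 called 1, *Cd40*, against 0% and 2.63% of all genes. edgeR counted 2 of them, *Cd40* and *Icosl*, at an unadjusted p under 0.05, against 11.3% of all genes. For none of the 9 did the groups not overlap, against 16.3% of all genes. The call of *Cd40* was lost without yHSC replicate 3 (log2 fold change 4.18, adjusted p = 0.160), Selp_low paHSC replicate 1 (3.92, 0.0545) or Selp_low paHSC replicate 2 (4.11, 0.129). Without the filter on low counts edgeR called *Cd40* (adjusted p = 0.0186), against 0.836% of all genes. Without Selp_low paHSC replicate 3, edgeR called *Cd40* (log2 fold change 5.01, adjusted p = 0.0119), against 0.534% of all genes, and DESeq2 called 4 genes, against 7.4% of all genes. These were *Cd40*, *Icosl* (log2 fold change 2.84, adjusted p = 0.000548), *Cd200* (1.68, 0.000508) and *Sirpa* (-2.08, 0.000114).

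**Figure D3:**
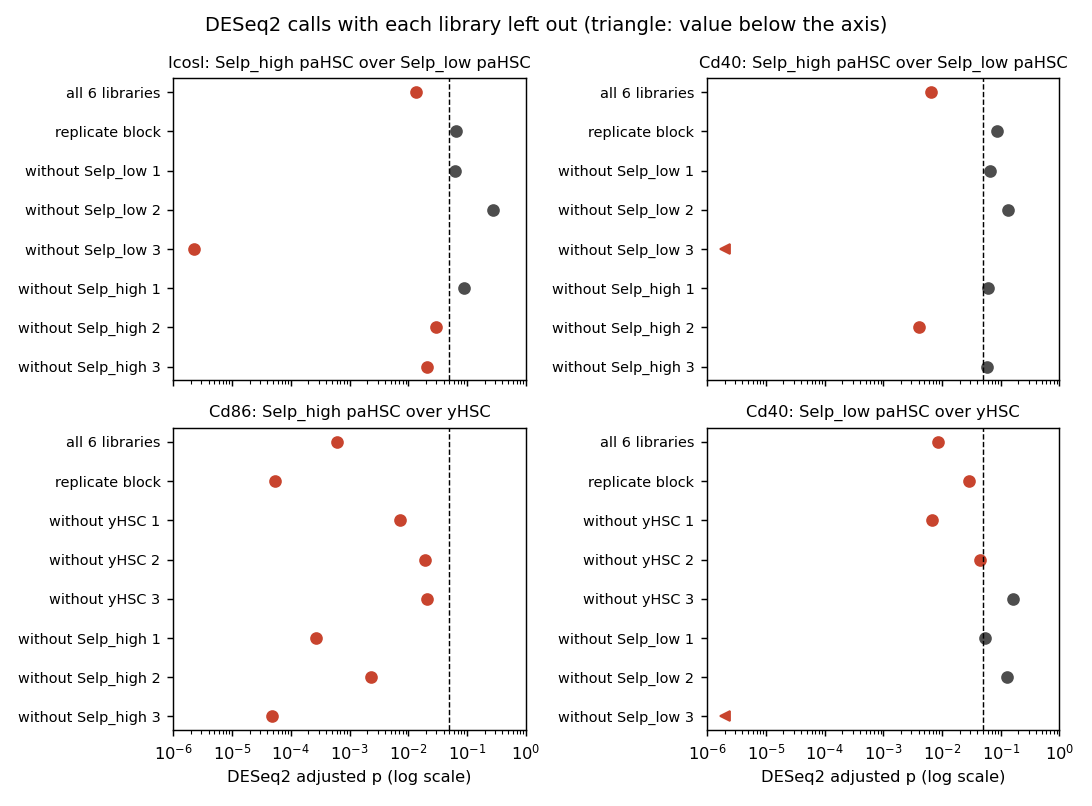
Adjusted p of DESeq2 (log axis) for the 4 calls, with all 6 libraries of a comparison, with the replicate number as a block and with each library left out. The dashed line marks 0.05, red points are at or below it, and triangles stand for values below the axis. *Cd86* stayed to the left of the line in every fit shown, and *Icosl* and *Cd40* crossed it when single libraries were left out.

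*Cd200* and *Sirpa*, 2 inhibitory-pair genes, ran opposite ways across the Selp_low paHSC libraries. *Cd200* was at 78.6, 59.6 and 6.29 CPM in Selp_low paHSCs, at 22.9, 16.1 and 26.5 CPM in yHSCs and at 28.4, 19.1 and 10.6 CPM in Selp_high paHSCs. *Sirpa* was at 15.0, 20.6 and 118 CPM in Selp_low paHSCs, at 48.8, 69.0 and 113 CPM in yHSCs and at 30.3, 78.9 and 92.4 CPM in Selp_high paHSCs. The Selp_low paHSC libraries held both the highest and the lowest level of each gene. With all libraries in the fit, neither gene was called in any comparison.

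The markers of other blood cells moved with these levels. *Cd40*, *Icosl* and *Cd200* were highest in Selp_low paHSC replicates 1 and 2, where *Cd79a*, a part of the B cell receptor, was at 2495 and 4245 CPM, against 8.73 CPM in replicate 3. DESeq2 called 4 of the 8 B cell and plasma cell markers lower in Selp_high than in Selp_low paHSCs and 5 of the 8 higher in Selp_low paHSCs than in yHSCs. All 8 were detected in every library except Selp_high paHSC replicate 3, where *Pax5* was at 0. *Sirpa*, which is expressed on myeloid cells, was highest in Selp_low paHSC replicate 3, where *Lyz2* was at 25571 CPM, against 1101 and 361 CPM in replicates 1 and 2. The neutrophil markers were high in the same library. The other 9 monocyte and macrophage markers summed to 94.0, 79.3 and 313 CPM in Selp_low paHSC replicates 1, 2 and 3, of which *Vcam1* gave 285 CPM in replicate 3. Of the listed monocyte and macrophage markers, *Csf1r*, *Cd68*, *Mrc1*, *Fcgr1*, *C1qa* and *C1qb* were lower in each Selp_low paHSC library than in every yHSC library. The groups overlapped for *Adgre1*, at 4.92, 9.03 and 4.87 CPM in Selp_low paHSCs and 6.23 to 20.0 CPM in yHSCs. They also overlapped for *Cx3cr1* (0.393, 1.58 and 0.449 CPM against 0.0463 to 1.28 CPM), *Vcam1* and *Lyz2*. DESeq2 called *Csf1r* (log2 fold change -2.69, adjusted p = 0.00743) and *Mrc1* (-2.48, adjusted p = 0.0185) lower in Selp_low paHSCs than in yHSCs, and *Csf1r* higher in Selp_high than in Selp_low paHSCs (2.37, adjusted p = 0.0188). The part of these markers in the levels of *Cd40*, *Icosl*, *Cd200* and *Sirpa* was not tested.

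**Figure D4:**
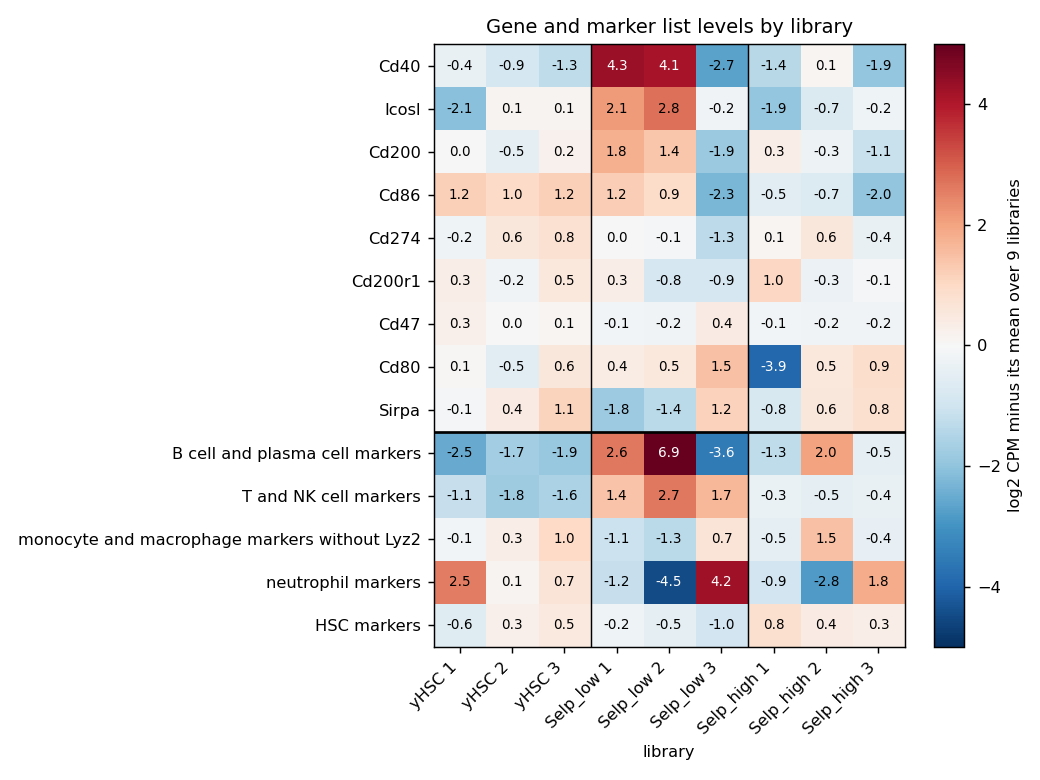
The 9 genes (above the line) and summed cell type marker lists (below it) in each library, as log2 CPM minus its mean over the 9 libraries. Red is above and blue below the mean. *Cd40* was 4.3 and 4.1 above its mean in Selp_low paHSC replicates 1 and 2 and 2.7 below it in replicate 3, and the B cell and plasma cell markers were 2.6 and 6.9 above and 3.6 below theirs. The B cell and plasma cell sum keeps *Jchain*, which gave 98320 of 105946 CPM in Selp_low paHSC replicate 2. The monocyte and macrophage sum leaves out *Lyz2*. The T and NK cell sum keeps *Nkg7*, which gave 619 of 633 CPM in Selp_low paHSC replicate 3.

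Ligand and receptor levels were set side by side within each library as FPKM, a ratio that no library scaling can change. *Cd47* exceeded *Sirpa* in 9 of 9 libraries, by 5.32 to 34.8 times. *Cd200* exceeded its receptor gene *Cd200r1* in 2 of 9 libraries, Selp_low paHSC replicates 1 and 2, and the ratio ranged from 0.387 to 3.70. In yHSCs this ratio was nearly constant, at 0.620 to 0.628. *Cd86* exceeded *Cd80*, its fellow ligand of CD28 and CTLA-4, in 8 of 9 libraries, all but Selp_low paHSC replicate 3, where the ratio was 0.686. *Cd274* exceeded *Cd80* in 9 of 9 libraries, by 2.85 to 309 times. The value of 309 was that of Selp_high paHSC replicate 1, with its 4 *Cd80* counts, and the next highest was 42.2.

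The 9 genes had a median edgeR log2 fold change of -0.72 for Selp_high over Selp_low paHSCs, with 3 of 9 positive, against -0.11 over all genes tested. The median of the 9 was -0.30 without Selp_low paHSC replicate 3, -0.23 without Selp_high paHSC replicate 1 and -0.23 with library totals alone, where that over all genes was 0.37. For Selp_high paHSCs over yHSCs the medians were -0.21 and -0.033, with 2 of 9 positive. For Selp_low paHSCs over yHSCs they were -0.029 and 0.083, with 4 of 9 positive. Any pair of these comparisons shares a group of libraries, so their values are not independent.

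Receptors and partners of the same pathways were counted on 8 further lists with 62 genes. The lists were also chosen with earlier results of these data known, so their counts beside all genes are descriptions. edgeR called 0 of the 62 genes in each comparison. At an unadjusted p under 0.05 it counted 16 of 58 tested for Selp_high over Selp_low paHSCs, 10 of 56 for Selp_high paHSCs over yHSCs and 14 of 57 for Selp_low paHSCs over yHSCs, against 12.5%, 7.59% and 11.3% of all genes. DESeq2 called 6, 4 and 6, against 2.46%, 3.26% and 2.63% of all genes. Without Selp_low paHSC replicate 3 it called 13 list genes between the pre-aged fractions and 21 for Selp_low paHSCs over yHSCs, among them the 6 called with all libraries in each, against 5.43% and 7.4% of all genes. With the replicate block it called 14 between the pre-aged fractions, 3 of them among those 6, against 10.1% of all genes. Of 10 receptors for these ligands, DESeq2 called 4 lower in Selp_high than in Selp_low paHSCs, *Cd28*, *Ctla4*, *Icos* and *Tnfrsf4*, the gene for OX40. These calls are of the fit without the replicate block. With the block *Cd28* was still called (-2.46, adjusted p = 1.73e-05), and *Ctla4* (-3.15, adjusted p = 0.119), *Icos* (-3.39, 0.0977) and *Tnfrsf4* (-3.67, 0.0861) were not. Without Selp_low paHSC replicate 3 all 4 were called, at -3.04 to -5.67 on the log2 scale. All 10 receptors had negative edgeR log2 fold changes, with a median of -4.08, or -4.64 without Selp_low paHSC replicate 3 and -2.30 without replicate 2. *Icos*, the receptor for ICOSL, was at 39.7, 47.9 and 1.12 CPM in Selp_low paHSCs and at 0.723, 2.96 and 2.18 CPM in Selp_high paHSCs, so replicates 1 and 2 were high as for *Icosl*. *Ctla4* was at 11.8, 39.8 and 0.524 CPM in Selp_low and at 0.826, 0.912 and 1.06 CPM in Selp_high paHSCs. *Tnfrsf9*, called by neither test (edgeR log2 fold change -4.91, SE 1.59, adjusted p = 0.338), was at 1.38, 33.7 and 0.562 CPM in Selp_low paHSCs. It was at 0.284, 0.468 and 0.429 CPM in Selp_high paHSCs. *Cd40lg*, the T cell ligand of CD40, was at 10.7, 15.6 and 0 CPM in Selp_low paHSCs and below 0.5 CPM in all other libraries, but was not called (DESeq2 adjusted p = 0.289). These receptors are mainly known on T cells. The summed level of 8 T and NK cell markers was 534, 1268 and 633 CPM in Selp_low paHSCs. It was 143 to 158 CPM in Selp_high paHSCs and 58.3 to 91.8 CPM in yHSCs. In Selp_low paHSC replicate 3, *Nkg7* alone gave 619 CPM of the sum. There *Cd3d*, *Cd3e*, *Cd3g*, *Trac* and *Cd2* were at 0.112 to 1.87 CPM, against 19.3 to 339 CPM in replicates 1 and 2. The part of these markers in the receptor levels was not tested.

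DESeq2 also called *Siglecg*, an inhibitory receptor for CD24 (log2 fold change -3.23, adjusted p = 0.00638), and *Ciita*, the master regulator of MHC class II genes (-3.07, 0.0465), lower in Selp_high than in Selp_low paHSCs. Both calls held with the block (-3.06, adjusted p = 0.0279, and -2.30, adjusted p = 0.00123) and without Selp_low paHSC replicate 3 (-3.71 and -3.63). Both were higher in Selp_low paHSCs than in yHSCs (2.65, adjusted p = 0.0169, and 3.43, adjusted p = 0.0283). In that comparison DESeq2 called *Pdcd1*, the gene for PD-1, higher (adjusted p = 7.51e-07), at 12.8, 19.9 and 0.674 CPM in Selp_low paHSCs and at 0 to 0.102 CPM in yHSCs. *Tnfrsf4* (log2 fold change 5.44, adjusted p = 0.00253), *Tigit* (5.49, 0.0142) and *Itgb3* (1.95, 0.0248) were called higher as well. The 6 calls held with the block and without Selp_low paHSC replicate 3. The fits without replicate 3 kept only the Selp_low paHSC libraries with high B cell marker levels. In replicate 3, *Ciita* (4.83 CPM) and *Tnfrsf4* (0.337 CPM) were below every yHSC library. *Tigit* was at 1.70, 16.3 and 0.187 CPM in Selp_low paHSCs and at 0 to 0.347 CPM in yHSCs. *Siglecg* and *Itgb3* were above every yHSC library in each Selp_low paHSC library. No gene of these lists was called lower in Selp_low paHSCs than in yHSCs with all libraries in the fit.

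For Selp_high paHSCs over yHSCs, DESeq2 called 4 genes of these lists, which it also called with the block. *Tnfsf4*, the gene for OX40 ligand, was at 31.7, 9.61 and 12.9 CPM in Selp_high paHSCs and at 3.86, 3.38 and 3.72 CPM in yHSCs (log2 fold change 2.26, SE 0.54, adjusted p = 0.00213). Every Selp_high paHSC library was above every yHSC library. *Cd27*, a costimulatory receptor that also marks early progenitors, was at 95.5, 52.4 and 52.8 CPM against 149, 174 and 230 CPM and was called lower (-1.49, SE 0.37, adjusted p = 0.00294). *Itgb3*, the integrin β3 gene, was called higher (3.43, SE 0.53, adjusted p = 3.22e-08), as was *Cd226*, the activating counterpart of TIGIT (5.71, SE 1.58, adjusted p = 0.0134). *Cd226* varied widely in Selp_high paHSCs, at 25.7, 305 and 5.15 CPM. *Itgb3* and *Cd226* are also known on platelets, and the summed level of 8 megakaryocyte and platelet markers, *Itgb3* among them, was 1327 to 7191 CPM in Selp_high paHSCs and 127 to 196 CPM in yHSCs. The part of these markers in the 2 calls was not tested.

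The genes most like each member were found by Pearson correlation of log2 CPM over the 9 libraries, among 10590 protein-coding genes. The libraries share group and replicate structure, so these values are descriptions. *Cd40* was most like *Bank1* (r = 0.978), *Tmem243* (0.977) and *Slamf6* (0.973), of which *Bank1* is a B cell scaffold gene. *Cd274* was most like *Trim30a* (0.960), *Stat2* (0.960) and *Cyria* (0.953), of which *Stat2* transmits type I interferon signals. *Cd86* was most like *Rnf122* (0.957), *Rpgrip1* (0.945) and *Cnot4* (0.942), and *Icosl* most like *Zfp36l1* (0.965), *Tfeb* (0.952) and *Btg1* (0.948). *Cd200* was most like *Rras2* (0.982), *Rab19* (0.970) and *Gngt2* (0.968), and *Cd200r1* most like *Anxa4* (0.973), *Trmt10b* (0.964) and *Ifitm1* (0.956). *Sirpa* was most like *6430548M08Rik* (0.976), *Ap2a2* (0.975) and *Hlx* (0.971). *Cd47*, whose levels hardly varied, was most like *Naa16* (0.937), *Hpn* (0.936) and *Casp8ap2* (0.925). *Cd80* was not placed, since a library held fewer than 10 counts.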

How the data were processed

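RNA-seq was done on 9 libraries of sorted mouse HSCs. Per the methods, reads were trimmed with fastp, aligned with HISAT2 and assigned to genes with featureCounts. The submitters' processing notes name HISAT2 2.2.1, featureCounts 2.0.6, DESeq2 1.42.0 and build mm39. The authors deposited raw read counts per gene, with gene length and position and without normalization. Whether strand was used, and how multi-mapping reads were handled, is not given in the sources used here, so reads of overlapping genes could be misassigned. There were no molecular identifiers, so a count of 0 was taken to allow 3 counts (0.0695 to 0.198 CPM), for counting error only.

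Each pair of groups was fitted alone in R 4.3.3 with edgeR 4.0.16 (TMM factors, filterByExpr, quasi-likelihood test) and with DESeq2 1.42.0, adjusting p by Benjamini-Hochberg over all genes tested. All 9 members passed the edgeR filter in each comparison. Steps were run before use on simulated counts with planted changes, without pairing or outlier libraries. This checked whether the code recovered planted changes, not how the tests behave at the spread of these libraries. CPM and FPKM used TMM-scaled totals and the deposited gene length, and log2 CPM a prior count of 2. All members are named, with *Selp*, the list genes that a test called and some of those that changed most. The 3 genes most like each member (mean CPM of at least 5, at least 10 counts in every library) are named too. Members and lists were chosen with earlier results of these data known. The same numbers of Selp_high and Selp_low paHSCs had residual correlations of 0.178, 0.276 and 0.303. A value over 0.1 in every pair was the rule for making paired fits. Against yHSCs of the same number the range was -0.417 to 0.0917. With unlike numbers, Selp_high paHSC replicate 1 reached 0.449 with yHSC replicate 2, and Selp_high paHSC replicate 2 reached 0.406 with yHSC replicate 1. Values of this size therefore do not by themselves show pairing. Plots were made with matplotlib 3.10.9 (Python 3.11.15). Alternatives covered scaling, filter, tool, fit of all libraries, the replicate block and each library left out. Chosen after seeing the data were the fits of list genes by DESeq2 with the block or without Selp_low paHSC replicate 3, the scaling of pairs of one number by library totals alone, and the monocyte and macrophage sum without *Lyz2*. 0 columns of the file were left unused.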

Additional observations from a re-analysis of the deposited data

How the results depend on the processing

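Of 324 edgeR values of single genes under other settings, 306 kept their sign, as did 172 of 189 DESeq2 values. The changes of sign were in differences that were not called. edgeR called 0 of the 9 genes in each comparison with TMM or RLE factors, library totals alone, 1 fit of all libraries or the replicate block, and 1 in each without the filter on low counts (*Icosl*, *Cd86* and *Cd40*). DESeq2 called 2 genes for Selp_high over Selp_low paHSCs, 1 for Selp_high paHSCs over yHSCs and 1 for Selp_low paHSCs over yHSCs. With each library left out in turn, DESeq2 called 0 to 5, always 1 (*Cd86*), and 0 to 4 genes, and edgeR called 0 to 1 for Selp_low paHSCs over yHSCs. With the replicate block in DESeq2, the pre-aged fractions gave 0 calls instead of 2, and the block changed no other call among the 9. Of the 16 list calls by DESeq2, the block ended 3, all between the pre-aged fractions. Same-numbered yHSC and paHSC libraries did not meet the rule for paired fits, so the block there only shares a number. It turned *Cd80* for Selp_high paHSCs over yHSCs to -0.57 (edgeR) and -0.56 (DESeq2), and *Cd200r1* to -0.058 and -0.073. Library totals alone moved the median log2 fold change over all tested genes from -0.11 to 0.37 for Selp_high over Selp_low paHSCs and from 0.08 to -0.47 for Selp_low paHSCs over yHSCs, and turned *Cd47* in the first to 0.25. Log2 fold changes that changed sign as libraries were left out ranged as follows, first in edgeR and then in DESeq2. For Selp_high over Selp_low paHSCs, *Sirpa* ranged from -0.035 to 1.91 and from -0.049 to 1.88. For Selp_high paHSCs over yHSCs, *Cd80* ranged from -0.51 to 0.59 and from -0.52 to 0.59, *Cd40* from -0.90 to 0.32 and from -0.94 to 0.27, *Sirpa* from -0.50 to 0.13 and from -0.49 to 0.14, *Cd200* from -0.58 to 0.13 and from -0.59 to 0.10, and *Cd200r1* from -0.48 to 0.28 and from -0.50 to 0.25. For Selp_low paHSCs over yHSCs, *Cd47* ranged from -0.27 to 0.045 and from -0.27 to 0.068. The causes of these changes were not tested. With 3 libraries a group and no molecular identifiers, *Cd80*, at 4 to 115 counts a library, was the gene most limited by depth.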
